A study of Mus musculus with 4 samples.

Results

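The 10 genes described here encode the inducible parts of the immunoproteasome and the proteins that carry peptides to MHC class I molecules. They are Psmb8, Psmb9, Psmb10, Psme1, Psme2, Tap1, Tap2, Tapbp, Tapbpl and Erap1. They were chosen by symbol, with no use of their values but with earlier results of these data known. All 10 were present in the feature lists of both gene matrices, among 32285 genes. Psmb5, Psmb6 and Psmb7, the constitutive catalytic subunits, were set beside them as 3 comparison genes. Single-cell transcripts and antibody tags were read together (CITE-seq) from mouse hearts in 2 libraries. The anti-CD40 library pooled the hearts of 4 C57BL6J mice that had received an agonist antibody to CD40, a receptor of the tumour necrosis factor receptor family on antigen-presenting cells. The isotype library pooled the hearts of 4 C57BL6J mice that had received rat IgG. The titles and protocols name a sort on CD45 without DAPI and the series design names DRAQ5 without DAPI, and dose, time and age are not given in the sources used here. Since each group is 1 pool and 1 library, individual mice cannot be separated, no test between groups was possible, and the antibody given cannot be told apart from the preparation of its library.

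Proteasomes cut cytosolic proteins into peptides. In cells exposed to interferons, and constitutively in many immune cells, the newly built core carries the catalytic subunits Psmb8 (LMP7), Psmb9 (LMP2) and Psmb10 (MECL-1) in place of Psmb5, Psmb6 and Psmb7, which changes the peptides that are released. The PA28 activator, made of Psme1 and Psme2, caps the core. The TAP transporter, a dimer of Tap1 and Tap2, moves peptides into the endoplasmic reticulum, where Erap1 trims them. Tapasin (Tapbp) and the tapasin-related protein TAPBPR (Tapbpl) help to load them onto class I molecules and select among them.

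In the RefSeq annotation of GRCm38.p6, 5 of the 10 genes lie on chromosome 17, in or near the MHC. Psmb9, Tap1, Psmb8 and Tap2 are the 4 genes annotated in one stretch of 34292 bases there. Psmb9 spans chr17:34182030-34187330 and Tap1 spans chr17:34187556-34197225. Psmb8 follows at chr17:34198195-34201454 and Tap2 at chr17:34204479-34216321, while Tapbp lies at chr17:33919478-33929290. Psmb10 is on chromosome 8, Psme1 and Psme2 are on chromosome 14, Erap1 is on chromosome 13 and Tapbpl is on chromosome 6. The annotated starts of Psmb9 and Tap1 face away from each other across 225 bases. Promoter windows of 300 bases (250 before to 50 after an annotated start) were available for 8 of the 10 genes and for 2 of the comparison genes; Tap2, Tapbpl and Psmb7 are named only. These windows were searched on both strands for the gamma-activated site TTCNNNGAA, the core of the interferon-stimulated response element GAAANNGAAA and the kappaB consensus. The first was present in 8.30% of 32851 windows of 27025 genes, the second in 3.44% and the third in 8.46%. Among the windows of the 8 member genes, that of Psmb8 held the gamma-activated site, and those of Psme1 and Erap1 held the response element core. These 3 windows are shown, with that match in capitals, and with them the Tap1 window (chr17:34187306-34187605, plus strand), whose capitals mark the 225 bases between the 2 neighbouring starts and which held none of the 3 motifs.
Tap1: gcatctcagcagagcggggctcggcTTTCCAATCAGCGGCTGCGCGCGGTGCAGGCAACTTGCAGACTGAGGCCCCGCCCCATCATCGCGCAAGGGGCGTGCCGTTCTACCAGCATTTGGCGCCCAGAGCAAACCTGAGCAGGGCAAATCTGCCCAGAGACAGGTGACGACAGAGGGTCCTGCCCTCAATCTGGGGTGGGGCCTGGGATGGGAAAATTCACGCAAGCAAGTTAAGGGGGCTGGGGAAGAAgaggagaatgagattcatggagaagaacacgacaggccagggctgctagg
Psmb8: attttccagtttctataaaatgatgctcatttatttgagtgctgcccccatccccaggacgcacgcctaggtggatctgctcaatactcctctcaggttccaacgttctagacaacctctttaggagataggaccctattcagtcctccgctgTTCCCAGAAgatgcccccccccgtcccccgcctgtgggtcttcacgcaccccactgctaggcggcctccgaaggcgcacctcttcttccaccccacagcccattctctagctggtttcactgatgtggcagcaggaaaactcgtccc
Psme1: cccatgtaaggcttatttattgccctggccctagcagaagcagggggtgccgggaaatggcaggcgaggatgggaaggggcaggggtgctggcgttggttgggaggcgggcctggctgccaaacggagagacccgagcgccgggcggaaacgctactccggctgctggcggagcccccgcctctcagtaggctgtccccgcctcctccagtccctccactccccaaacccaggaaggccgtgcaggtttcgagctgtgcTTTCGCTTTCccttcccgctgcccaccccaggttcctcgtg
Erap1: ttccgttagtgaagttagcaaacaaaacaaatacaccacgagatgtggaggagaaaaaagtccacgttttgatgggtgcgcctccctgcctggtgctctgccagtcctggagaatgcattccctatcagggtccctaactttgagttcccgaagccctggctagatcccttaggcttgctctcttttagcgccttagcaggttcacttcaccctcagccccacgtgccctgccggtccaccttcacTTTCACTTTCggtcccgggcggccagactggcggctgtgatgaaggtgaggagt
The Psmb8 window is chr17:34197945-34198244 on the plus strand, and its match runs from 97 to 89 bases before the start. That of Psme1 is chr14:55578244-55578543 on the plus strand, and the match lies on the minus strand from 9 to 18 bases after the start. The Erap1 window is chr13:74639603-74639902 on the plus strand, drawn around a start inside the annotated gene, and its match, on the minus strand, begins 4 bases before that start. A match is a description of these letters and does not show that a factor binds there.

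The deposited matrices hold unnormalised UMI counts, where 1 UMI stands for 1 captured transcript. The anti-CD40 library kept 4278 of 7087 barcodes with 47485251 gene UMIs (median 8284.5 per cell), and the isotype library kept 2558 of 4908 barcodes with 22687435 gene UMIs (median 5446). Both libraries held 13 of the same barcodes, of which 6 were kept in both. Cells were assigned to classes by a gate on detected marker genes, which took 2770 anti-CD40 cells (64.7%) and 1592 isotype cells (62.2%). The gate gave 2080 anti-CD40 and 760 isotype mononuclear phagocytes, 318 and 151 neutrophils, and 104 and 122 NK cells, in the same order. These 3 classes had at least 50 cells in each library and were compared. T cells (132 in anti-CD40, 28 in isotype), endothelial cells (46 and 39) and fibroblasts (51 and 35) are given as values from few cells; the last 2 are classes that do not carry CD45, the marker in the named sort. Antibody tags fitted the gates: NK1.1 was high in NK cells, and Ly-6G with CD11b in neutrophils, while the F4/80 tag of phagocytes was low, with a median of 1 UMI in anti-CD40 phagocytes. Transcripts carried over from other cells were present. The 8 B cell markers summed to 32.1 CPM (UMIs per 1000000 UMIs of the class) in anti-CD40 phagocytes and to 207 CPM in isotype phagocytes, and the part of such RNA in the values below was not tested unless a value is given.

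In phagocyte-gated cells all 10 genes were higher in the anti-CD40 library than in the isotype library, by 2.07-fold (Erap1) to 5.87-fold (Tap1). Together they made up 0.476% of all UMIs in anti-CD40 phagocytes and 0.125% in isotype phagocytes. All 10 passed a fold of 1.5, computed after adding 10 CPM to each level, against 5.54% of the 10543 genes that had at least 30 UMIs in the library where they were higher; 0 passed it lower, against 9.67% of these genes. The median log2 ratio of the 10 was 1.79, beside -0.09 for all genes measured and 0.58 for the 3 constitutive subunits. Ratios are on CPM, and intervals are exact 95% intervals that cover counting error only, not differences between mice. Scaling by the trimmed mean of M values (TMM) would raise every log2 ratio in this class by 0.27, and by 0.18 in NK cells and 0.36 in neutrophils. Phagocytes of the anti-CD40 library also had more UMIs per cell (median 10537.5, against 6878.5 in the isotype library).

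The 3 immunosubunits were each about 4- to 5-fold higher. Psmb8, which has the chymotrypsin-like activity of the immunoproteasome, was at 1050 CPM (26926 UMIs) in anti-CD40 phagocytes and at 263 CPM (1545 UMIs) in isotype phagocytes, a ratio of 3.99 (3.79 to 4.21). Psmb9, which takes the place of Psmb6, was at 507 CPM in anti-CD40 and 99.3 CPM in isotype phagocytes, a ratio of 5.11 (4.70 to 5.56). Psmb10, the trypsin-like subunit, was at 494 CPM in anti-CD40 and 122 CPM in isotype phagocytes, a ratio of 4.06 (3.77 to 4.39). The interval of Psmb9 lies above those of the other two. The constitutive subunits stood higher too, but by less. Psmb5 was at 186 CPM in anti-CD40 and 122 CPM in isotype phagocytes (ratio 1.53, 1.42 to 1.66). For Psmb6 the levels were 231 and 148 CPM (ratio 1.57, 1.46 to 1.68), and for Psmb7 they were 91.6 and 72.7 CPM (ratio 1.26, 1.14 to 1.40). With the 10 CPM added, Psmb6 alone of these 3 passed the fold of 1.5; under TMM the ratios were 1.85, 1.89 and 1.52.

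Both subunits of the PA28 activator were higher, Psme2 more than Psme1. Psme1 was at 832 CPM in anti-CD40 phagocytes and 258 CPM in isotype phagocytes, a ratio of 3.22 (3.06 to 3.39). Psme2 was at 800 CPM in anti-CD40 and 175 CPM in isotype phagocytes, a ratio of 4.58 (4.30 to 4.88). Psme2 has a near-identical copy, Psme2b, among the files' features (1279 UMIs in anti-CD40 and 220 in isotype phagocytes, beside 20518 and 1026 for Psme2), so its reads could have been split between the copies. Psme3, another PA28 family member that caps nuclear proteasomes, was at 29.4 CPM in anti-CD40 and 31.8 CPM in isotype phagocytes, with an interval that included 1 (ratio 0.92, 0.79 to 1.09).

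Among the transport and loading genes, the partners of the TAP transporter differed in their ratios. Tap1 was at 394 CPM (10099 UMIs) in anti-CD40 phagocytes and at 67.1 CPM (394 UMIs) in isotype phagocytes, a ratio of 5.87 (5.31 to 6.51). Tap2 was at 160 CPM in anti-CD40 and 60.1 CPM in isotype phagocytes, a ratio of 2.67 (2.39 to 2.98), so that the intervals of the 2 partners do not meet. Tapbp was at 393 CPM in anti-CD40 and 154 CPM in isotype phagocytes (ratio 2.55, 2.38 to 2.73). Tapbpl, at 80.4 CPM in anti-CD40 and 23.8 CPM in isotype phagocytes, had a ratio of 3.37 (2.84 to 4.03). Erap1, the trimming peptidase, was at 48.6 CPM in anti-CD40 and 23.5 CPM in isotype phagocytes, a ratio of 2.07 (1.74 to 2.49) and the smallest of the 10.

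**Figure D1:**
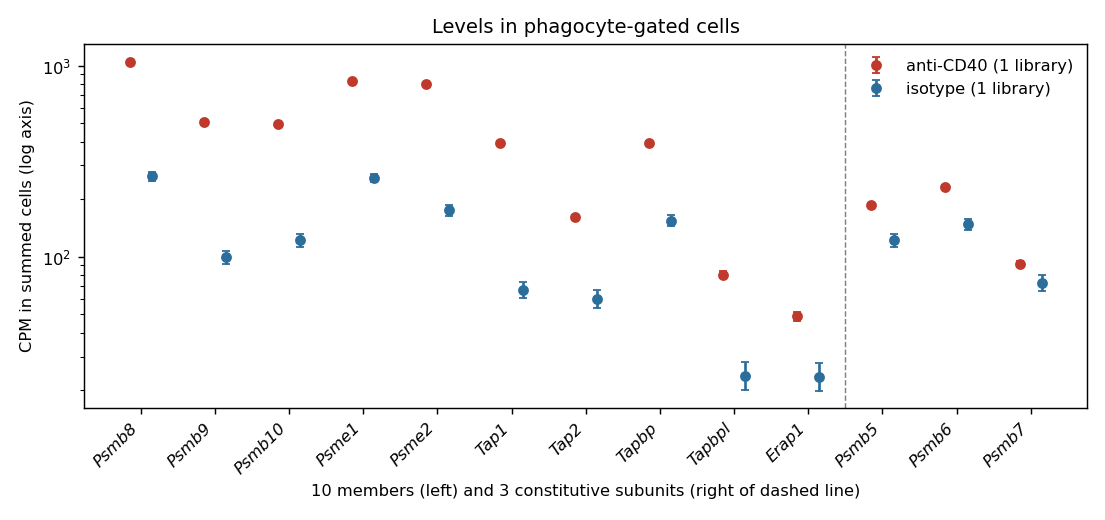
Level of each gene in phagocyte-gated cells of the anti-CD40 library (red, left of each pair) and of the isotype library (blue, right), in CPM on a log axis, with exact 95% Poisson intervals; 1 library each. Every member is higher in anti-CD40, from 48.6 against 23.5 CPM for Erap1 to 1050 against 263 CPM for Psmb8, while the 3 constitutive subunits on the right are closer together.

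The difference was spread over most phagocytes and was not carried by a few cells. Each phagocyte was thinned to 1000 UMIs, which left out 38 anti-CD40 and 45 isotype cells with fewer. The 10 genes then summed to a median of 4 UMIs per cell in anti-CD40 phagocytes (quartiles 3 and 6) and of 1 in isotype phagocytes (quartiles 0 and 2). No UMI of any of the 10 was left in 3.48% of anti-CD40 and 34.0% of isotype phagocytes. The 95th percentile of isotype phagocytes was 3 UMIs, and 1261 of 2042 anti-CD40 phagocytes (61.8%) exceeded it, against 24 of 715 isotype phagocytes (3.36%). Psmb8 was detected in 58.9% of thinned anti-CD40 and 20.1% of thinned isotype phagocytes (93.8% and 65.7% without thinning). For Tap1 the thinned shares were 31.1% in anti-CD40 and 6.43% in isotype phagocytes (90.4% and 33.3% without thinning). The 3 constitutive subunits together averaged 0.465 UMIs per thinned anti-CD40 phagocyte and 0.303 per isotype phagocyte.

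**Figure D2:**
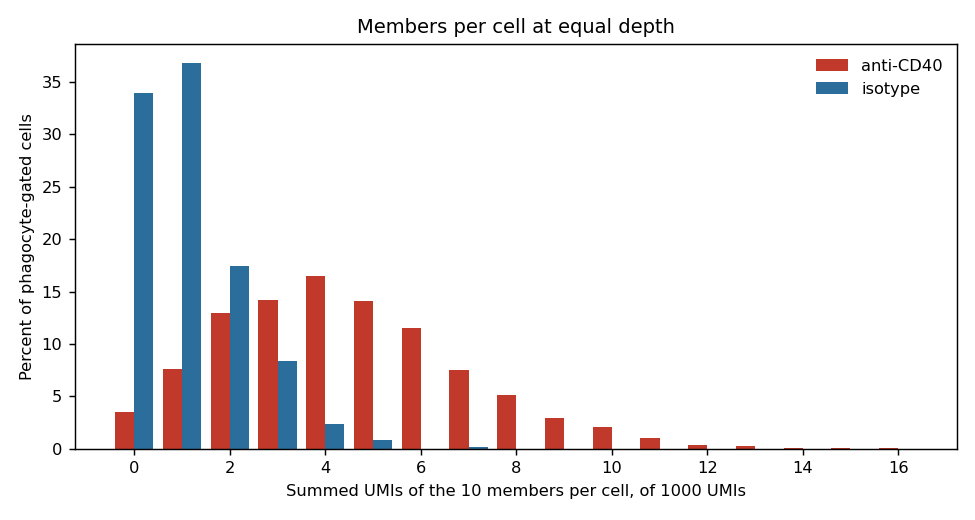
Percent of phagocyte-gated cells (y axis) by the summed UMIs of the 10 genes per cell after thinning to 1000 UMIs (x axis), with anti-CD40 in red (2042 cells) and isotype in blue (715 cells). The isotype cells gather at 0 to 2 UMIs, with 34.0% at 0, and the anti-CD40 cells centre on 4 UMIs, with 3.48% at 0.

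Phagocytes were divided by detected transcripts into cells with Timd4, Lyve1 or Folr2, markers of resident cardiac macrophages (897 in anti-CD40, 356 in isotype), cells with Ccr2 and none of those, a receptor of monocyte-derived cells (761 and 152), and cells with neither (422 and 252). Detection depends on depth, and the last group had the fewest UMIs per cell. In the anti-CD40 library the resident and Ccr2 groups had close levels of most members. In the isotype library the Ccr2 group stood higher for each of the 10, and its ratios were smaller. The step was small for Psmb10 (130 CPM in the Ccr2 group, 128 CPM in resident cells) and Tap2 (61.9 and 56.1 CPM). The share of all genes higher in that group was not counted, so nothing is read from the count of 10. Whether the groups differ in response was not tested. Tap1 was at 409 CPM in anti-CD40 and 56.5 CPM in isotype resident cells, a ratio of 7.24 (6.21 to 8.48). In the Ccr2 group Tap1 was at 373 CPM in anti-CD40 and 94.9 CPM in isotype cells, a ratio of 3.93 (3.34 to 4.64). Psmb8 was at 1069 CPM in anti-CD40 and 237 CPM in isotype resident cells (ratio 4.51, 4.19 to 4.87). Its levels in the Ccr2 group were 1056 CPM in anti-CD40 and 336 CPM in isotype cells (ratio 3.14, 2.88 to 3.43). Psmb10 differed least between the groups, with ratios of 4.00 (3.61 to 4.45) in resident cells and 3.80 (3.31 to 4.38) in the Ccr2 group. All 10 genes passed the fold of 1.5 in resident cells (6.88% of all genes did), 9 did in the Ccr2 group (8.06%) and all 10 in cells with neither (11.3%). Erap1 was the exception in the Ccr2 group, at 42.9 CPM in anti-CD40 and 29.4 CPM in isotype cells (ratio 1.46, 1.08 to 2.01).

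In neutrophils, which in the isotype library had low levels of most of these genes, most ratios were larger than in phagocytes. Only Psmb8, Psmb10 and Psme2 had intervals above those of phagocytes. Psmb9 was not low in isotype neutrophils (118 CPM, against 99.3 CPM in isotype phagocytes). It was at 683 CPM in anti-CD40 neutrophils, a ratio of 5.80 (4.35 to 7.89). The fold of 1.5 was passed by 9 members, against 19.7% of 2739 genes (26.5% passed it lower, among them 0 members). Of these 9, 6 had 30 UMIs in both libraries, while Psmb10, Tap1 and Tapbpl met the minimum only through the anti-CD40 library, where they were high. The median log2 ratio over all 10 was 2.23, beside -0.11 for all genes. Psmb8 was at 921 CPM in anti-CD40 and 120 CPM in isotype neutrophils (ratio 7.67, 5.78 to 10.4). Tap1 was at 521 CPM in anti-CD40 and 61.2 CPM in isotype neutrophils (ratio 8.51, 5.74 to 13.2). Psmb10 gave 230 UMIs in anti-CD40 and 8 UMIs in isotype neutrophils, a ratio of 12.2 with a wide interval (6.08 to 28.6). Psme2 had a ratio of 7.71 (5.40 to 11.4) and Psme1 one of 4.32 (3.22 to 5.89). Tap2 (3.20), Tapbp (2.81) and Tapbpl (4.38) were also higher, with intervals above 1. Erap1, with 18 UMIs in anti-CD40 and 4 in isotype neutrophils, was too sparse to place (0.63 to 7.75). Transcripts of 5 phagocyte markers, C1qa among them, stood in neutrophils at 11.2% of their phagocyte level in the anti-CD40 library and at 6.27% in the isotype library, with 0 of the 5 undetected in either. Psmb8 stood there at 87.7% of its phagocyte level in anti-CD40 and at 45.7% in isotype, and Tap1 at 132% and 91.3%.

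NK cells had high levels in the isotype library already, and their ratios were smaller. Of the 10 genes, 6 passed the fold of 1.5, against 12.7% of 3989 genes (20.0% passed it lower, among them 0 members): the 3 immunosubunits, both PA28 subunits and Tap1. The count was 3 with cells thinned to 1000 UMIs and 2 at a fold of 2. Scaling by TMM or by median of ratios raises every ratio in NK cells, so neither can lower the count. Under median of ratios Tap2, Tapbp and Erap1 had ratios of 1.56, 1.54 and 1.87, before 10 CPM is added. Psmb8 was at 813 CPM in anti-CD40 and 346 CPM in isotype NK cells (ratio 2.35, 2.00 to 2.76). Psme2 was at 496 CPM in anti-CD40 and 248 CPM in isotype NK cells (ratio 2.00, 1.65 to 2.43), and Tap1 at 196 CPM and 99.4 CPM (ratio 1.97, 1.46 to 2.71). The intervals of Tap2 (ratio 1.35, 0.99 to 1.86), Tapbpl (1.24, 0.84 to 1.85) and Erap1 (1.62, 0.98 to 2.77) included 1. The constitutive subunits of NK cells had ratios of the same size, 1.52 for Psmb5, 1.93 for Psmb6 and 1.62 for Psmb7, with intervals above 1 for all 3. The median log2 ratio was 0.63 for the 10 genes and 0.60 for the 3 constitutive subunits, beside -0.04 for all genes.

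Few cells stood behind the other classes. In the 46 anti-CD40 and 39 isotype endothelial cells the fold of 1.5 was passed by 10 genes (26.0% of 1473 genes did), but only 3 of them (Psme1, Psme2 and Tapbp) had 30 UMIs in both libraries; the other 7 met the minimum through the anti-CD40 library, where they were high, and nothing is read from the count. Tap1 had 183 UMIs in anti-CD40 and 4 in isotype endothelial cells, a ratio of 25.1 (9.63 to 93.1). In the 51 anti-CD40 and 35 isotype fibroblasts 10 passed (10.9% of 2869 genes did), with the same 3 alone at 30 UMIs in both libraries, and nothing is read from that count either. Anti-CD40 and isotype fibroblasts had 330 and 24 UMIs of Psmb8 (ratio 14.0, 9.25 to 22.2), 128 and 11 UMIs of Psmb9 (ratio 11.9, 6.41 to 24.4) and 121 and 10 UMIs of Tap1 (ratio 12.3, 6.48 to 26.4). The 5 phagocyte markers stood at 5.57% of their phagocyte level in anti-CD40 and 2.19% in isotype endothelial cells, and at 5.09% and 3.07% in fibroblasts; 2 of the 5 were undetected in isotype endothelial cells. Tap1 stood at 166% of its phagocyte level in anti-CD40 and 38.8% in isotype endothelial cells, and at 72.3% and 34.4% in fibroblasts. In T cells 8 of the 10 passed, but so did 42.7% of 3032 genes; the isotype library had 28 T cells, and only 3 of the 10 genes had 30 UMIs in both libraries. The median log2 ratio was 1.12 for the 10 genes, 0.99 for the constitutive subunits and 0.49 for all genes. Genes of other marker lists differed between the T cells of the libraries. The 8 NK markers summed to 947 CPM in anti-CD40 and 125 CPM in isotype T cells (3 of 8 undetected in each). The 8 mature dendritic markers summed to 11.9 CPM (3 undetected) and 307 CPM (7 undetected). Ccr7 alone made up the 307 CPM, so that sum does not show the dendritic list as a set. The part of these differences in the T cell ratios was not tested. B cells were nearly absent from the anti-CD40 library (13 cells, against 416 in the isotype library). Their Psmb8 level was 528 CPM (34 UMIs) in anti-CD40 and 307 CPM (562 UMIs) in isotype cells, a ratio of 1.72 (1.18 to 2.43) and the smallest of the 10. Psme2 had the largest, 5.40 (3.85 to 7.42; 46 UMIs in anti-CD40 and 242 in isotype), and Psmb9 had one of 3.62 (2.41 to 5.28). Of the 10 B cell intervals, 7 lay above 1, all from the 13 anti-CD40 cells. Among these, Psmb10 (18 UMIs in anti-CD40), Tap1 (18 UMIs) and Tap2 (12 UMIs) fell below the minimum of 30 UMIs. The share of all genes was not counted in B cells, and nothing is read from the count.

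**Figure D3:**
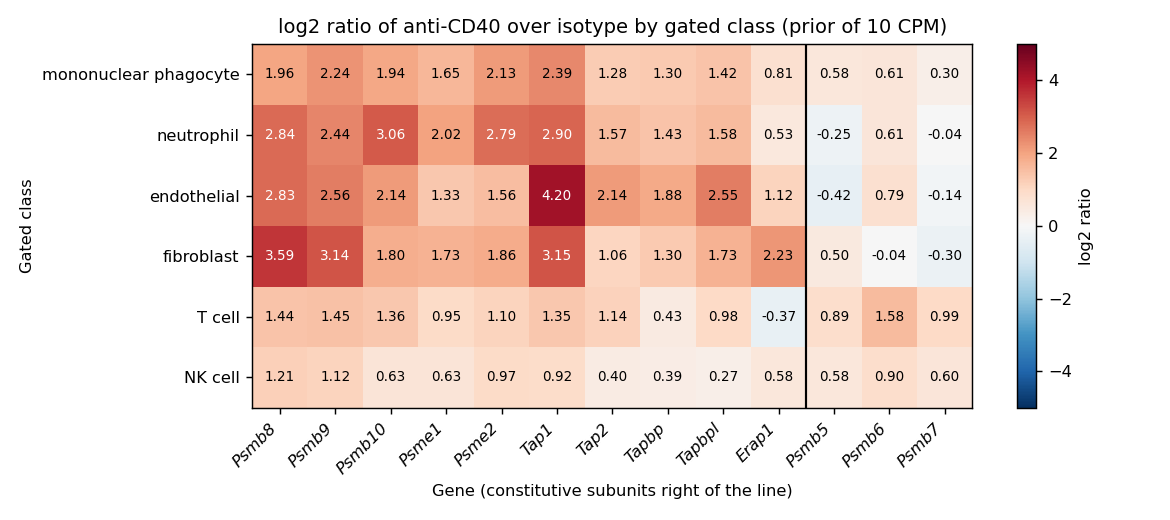
log2 ratio of anti-CD40 over isotype for the 10 members and the 3 constitutive subunits (columns) in 6 gated classes (rows), after adding 10 CPM to each level; red is higher in anti-CD40 and blue lower. Members run from 0.81 to 2.39 in phagocytes and, over all 6 classes, from -0.37 for Erap1 in T cells (below 0 under TMM too) to 4.20 for Tap1 in endothelial cells, while the constitutive subunits run from -0.42 to 1.58; the small negative values of Psmb5 and Psmb7 in neutrophils, Psmb7 in endothelial cells and Psmb6 in fibroblasts turn positive under TMM scaling.

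Setting each immunosubunit against the subunit that it replaces removes the choice of scaling, since both genes come from the same cells. In phagocytes, Psmb8, Psmb9 and Psmb10 supplied 80.1% of the UMIs of the 6 catalytic subunits in the anti-CD40 library (95% Clopper-Pearson interval 79.8 to 80.4) and 58.6% in the isotype library (57.2 to 60.0), a difference of 21.5 percentage points. The shares were 80.8% in anti-CD40 and 57.6% in isotype resident cells, and 79.5% and 60.7% in the Ccr2 group. Neutrophils had 93.0% (91.7 to 94.1) in anti-CD40 and 66.1% (58.3 to 73.2) in isotype. Endothelial cells had 86.7% (84.2 to 89.0) in anti-CD40 and 54.1% (44.3 to 63.6) in isotype, and fibroblasts 79.1% (75.9 to 82.0) and 31.5% (25.2 to 38.4). The differences were smaller in the lymphoid and dendritic classes. NK cells had 70.6% (68.4 to 72.8) in anti-CD40 and 65.8% (61.9 to 69.6) in isotype, T cells 77.9% and 75.4%, B cells 76.1% and 68.4%, and conventional dendritic cells (9 and 28 cells) 78.1% and 76.4%, with overlapping intervals in each of these 4 classes. These are shares of transcripts, captured at rates that may differ between genes, and not of protein.

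**Figure D4:**
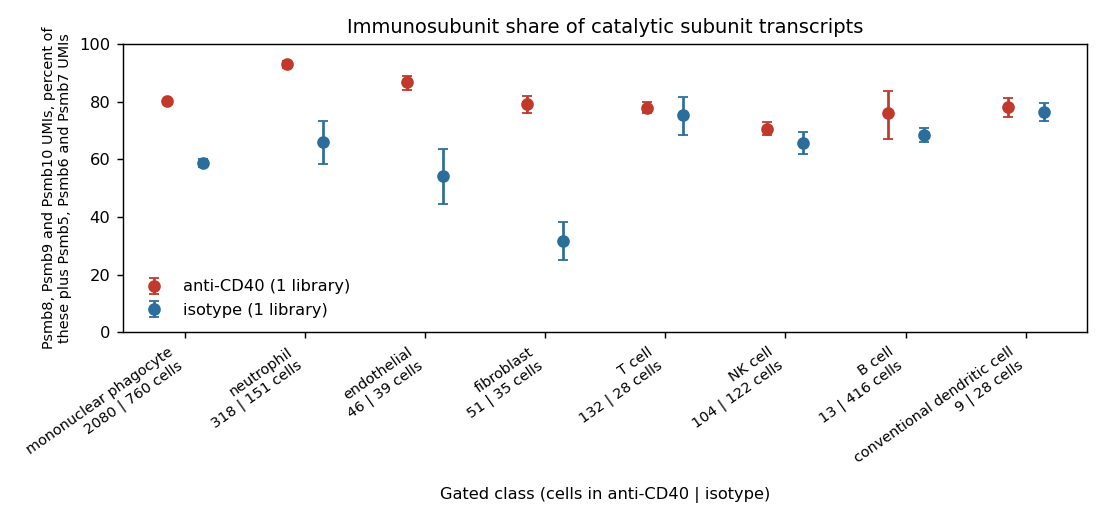
Share of catalytic subunit UMIs that come from Psmb8, Psmb9 and Psmb10 (y axis, percent, from 0 to 100) by gated class (x axis, with cell numbers), anti-CD40 in red on the left and isotype in blue on the right, with exact 95% binomial intervals. Isotype shares run from 31.5% in fibroblasts to 76.4% in conventional dendritic cells, and anti-CD40 shares from 70.6% in NK cells to 93.0% in neutrophils.

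Pair by pair, the ratio of immunosubunit to counterpart was larger in anti-CD40 phagocytes for all 3 pairs. There were 5.64 Psmb8 UMIs for each Psmb5 UMI in anti-CD40 phagocytes and 2.16 in isotype phagocytes, a ratio of ratios of 2.61 (2.37 to 2.86). The value was 3.26 (2.92 to 3.64) for Psmb9 to Psmb6 and 3.22 (2.84 to 3.66) for Psmb10 to Psmb7. In neutrophils the 3 values were 9.33 (5.60 to 15.6), 3.42 (1.75 to 6.70) and 12.7 (4.65 to 34.4). In NK cells only Psmb8 to Psmb5 stood above 1, at 1.54 (1.16 to 2.05), while Psmb9 to Psmb6 was 1.17 (0.82 to 1.69) and Psmb10 to Psmb7 was 0.97 (0.60 to 1.57). The intervals of NK cells and phagocytes do not meet for any of the 3 pairs. All 3 intervals of T cells included 1.

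**Figure D5:**
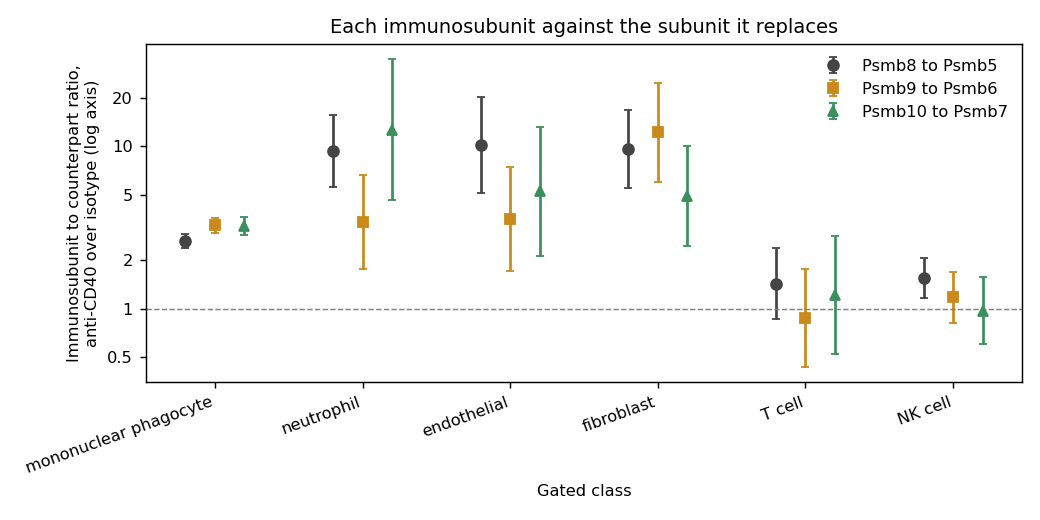
Ratio of each immunosubunit to its constitutive counterpart in anti-CD40 cells divided by the same ratio in isotype cells (y axis, log scale) for 6 gated classes (x axis), with 95% intervals for counting error; the dashed line is 1. Phagocytes lie between 2.61 and 3.26, neutrophils, endothelial cells and fibroblasts between 3.42 and 12.7, and the T and NK cell intervals, other than that of Psmb8 to Psmb5 in NK cells, cross 1.

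The range of each gene's level across the 6 classes was set side by side for the libraries. Psmb8 ran from 776 CPM in fibroblasts to 1398 CPM in endothelial cells of the anti-CD40 library, a range of 1.80-fold. In the isotype library it ran from 55.4 CPM in fibroblasts to 411 CPM in T cells, a range of 7.42-fold. Psmb10 had a range of 2.15-fold in anti-CD40 and 10.5-fold in isotype, and Psme1 one of 1.98-fold and 3.89-fold. The range was narrower in anti-CD40 for 7 of the 10 genes and for 1 of the 3 constitutive subunits, beside 53.4% of the 6462 genes with a UMI in every class and library. Some isotype low ends rest on few UMIs (2 for Tapbpl in endothelial cells, 8 for Psmb10 in neutrophils, 10 for Tap1 and 11 for Psmb9 in fibroblasts), so the count is not read as a result about the 10. Tap2 (4.50-fold in anti-CD40, 2.27-fold in isotype), Tapbp (4.52-fold and 1.65-fold) and Erap1 (6.15-fold and 5.64-fold) had a wider range in anti-CD40. For Tap2 and Tapbp the anti-CD40 endothelial cells were highest, at 635 CPM and 842 CPM, with intervals above those of the next class. In the isotype library the order of Psmb8 was T cells, NK cells, phagocytes (263 CPM), endothelial cells (189 CPM), neutrophils (120 CPM) and fibroblasts. Neighbours whose intervals did not meet in that order were NK cells over phagocytes and neutrophils over fibroblasts.

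As a median, the rest of the pathway was higher by less than these genes. Of 56 other genes of the proteasome and the class I route, 22 were past 1.5-fold higher in anti-CD40 phagocytes and 0 past 1.5-fold lower, with a median log2 ratio of 0.46; 5.54% of all genes were past it higher, the background for each list here. Under TMM or median of ratios scaling, which raise every ratio in this class, the count was 36. The share of all genes was not counted under these scalings, so 5.54% is not the background of that count. Core subunits of the 20S particle accounted for 7 of 11 (median 0.64), among them Psmb2 and Psma5. The 19S regulatory particle, which recognises ubiquitin chains and unfolds substrates, accounted for 1 of 18 (median 0.33), and the other activators, inhibitor and assembly factors for 2 of 8, which were Pomp, a chaperone of proteasome assembly, and Psmg4. Class I molecules, their chaperones and regulators accounted for 12 of 19 (median 0.74). The largest of these ratios were in that list. Nlrc5, the transactivator of class I genes, was at 73.0 CPM in anti-CD40 and 11.2 CPM in isotype phagocytes (ratio 6.50, 5.08 to 8.44). Irf1 had a ratio of 3.78 (3.45 to 4.15) and H2-T23, a non-classical class I gene, one of 3.60 (3.41 to 3.81). H2-Q7 (6.32) and H2-Q6 (4.94) are near-identical to one another and to other class I genes, so their separate values are uncertain. At the other end were Psmg2 (0.96), Canx (0.94), Psme3 (0.92) and Uggt1 (0.91), of which only Canx, a chaperone of newly made class I chains, had an interval that left out 1 (0.89 to 0.99); under TMM all 4 would stand above 1. In NK cells 15 of 52 other pathway genes measured were past 1.5-fold higher, beside 12.7% of all genes there. In neutrophils 16 of 32 were past 1.5-fold higher, beside 19.7%, and 1, Lnpep, was past 1.5-fold lower, beside 26.5%. Lnpep is an aminopeptidase and was named after its value was seen.

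The genes whose levels were most like the mean of the 10 were sought over the 9 sums of class and library with at least 50 cells, among 770 genes with 30 UMIs in each. Points of 1 library share its depth and preparation, so the correlations describe these 9 points only. H2-K1 (Pearson r of 0.92 on log2 levels), B2m (0.90) and H2-T23 (0.83), which encode class I heavy chains and their light chain, came first, followed by Sri (0.79) and Pgk1 (0.78). The constitutive subunits had values of 0.49 (Psmb5), 0.60 (Psmb6) and 0.41 (Psmb7). H2-K1 was at 2794 CPM in anti-CD40 and 1010 CPM in isotype phagocytes, and at 3182 CPM and 662 CPM in neutrophils. In NK cells it was at 3661 CPM in anti-CD40 and 3060 CPM in isotype.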

How the data were processed

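Transcripts and antibody tags of heart cells were captured with the 10x Genomics 5′ chemistry, per the labels. The authors deposited raw UMI counts per feature and barcode for 32285 genes and 198 tags, with no normalization. The file headers name Cell Ranger 6.0.1, whereas Cell Ranger 3 and Seurat 3 are listed in the submitters' processing notes. Filters applied before deposit are not given in the sources used here.

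Barcodes with fewer than 200 genes, or with 10% or more of their UMIs from mitochondrial genes, were dropped. No doublet caller was run. A cell joined a class with at least 3 detected markers of its list if the detected share of every unrelated list was at most 0.5 of the share of its own. T with NK cells, and conventional with mature dendritic cells, were not counted against each other, and cells fitting more than 1 class were left out. For dendritic gates 5 phagocyte markers were counted. These limits were set from marker detection and class sizes, after seeing both, and not from the genes reported. The 10 genes, the pathway lists and the 15 marker lists were chosen with earlier results of these data known.

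UMIs were summed per class and library and divided by the class total (CPM). Depth per library is given in the text, and sets the intervals: exact Poisson for levels, exact conditional binomial for ratios, Clopper-Pearson for shares and a log odds (Woolf) interval for ratios of ratios, all at 95% and for counting error only. A gene was called past 1.5-fold with at least 30 UMIs in the library where it was higher and after adding 10 CPM. No test between libraries was made. Named genes were the 10 members, Psmb5, Psmb6 and Psmb7, the 6 highest and 4 lowest other pathway genes in phagocytes, and the 6 genes most like the members' mean; some of these values are not reported here. Alternatives varied filters, gates, thinning, cell weighting, scaling (edgeR 4.0.16 TMM in R 4.3.3, and median of ratios), the fold and shared barcodes. The calls were tried on counts simulated from the isotype phagocyte sums with counting error only. That simulation held no differences between mice and did not cover sparse genes or the smaller classes. Python 3.11.15, numpy 2.4.6, scipy 1.17.1, pandas 2.3.3 and matplotlib 3.10.9 were used. Gene positions and promoter windows came from RefSeq on GRCm38.p6.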

Additional observations from a re-analysis of the deposited data

Results flagged for a closer look

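Constitutive catalytic subunits moved to opposite sides of 1 in 2 classes. Psmb5 had a ratio of anti-CD40 over isotype of 0.822 in neutrophils (62 and 32 UMIs, interval 0.53 to 1.30) and of 1.53 in phagocytes. Psmb7 had a ratio of 0.964 in neutrophils (25 and 11 UMIs, interval 0.46 to 2.17) and of 1.26 in phagocytes. The difference between the classes was not tested, the neutrophil intervals include 1, and under TMM scaling the neutrophil ratios are 1.06 for Psmb5 and 1.24 for Psmb7.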

How the results depend on the processing

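Of 13 alternatives, those that bear on single ratios gave 130 values for the 10 members and 3 constitutive subunits in phagocytes, of which 0 changed direction; 43 lay outside the main counting interval. Both scalings raise every ratio in this class, and all main ratios were above 1, so the scaled values could not have changed direction. Tap1 ranged from 5.72 to 7.12, Psmb8 from 3.99 to 4.84 and Erap1 from 1.66 to 2.51. Scaling moved the count of other pathway genes past 1.5-fold in phagocytes to 36 under TMM and to 36 under median of ratios, beside 22, and a fold of 2 gave 9. In NK cells that count was 30 under TMM, 31 under median of ratios and 1 at a fold of 2, beside 15. The count of members past the fold in NK cells was 3 with cells thinned to 1000 UMIs and 2 at a fold of 2, beside 6. Both scalings raise every NK ratio, so they can only keep or raise that count. Thinned sums kept the minimum of 30 UMIs, so genes could drop out for too few UMIs. The share of all genes was not counted under any of these settings, so the pathway and member counts stand without a background. With other lists held to at most 0.25 of the own share, an alternative chosen after seeing the data that left 795 anti-CD40 and 343 isotype phagocytes, the difference in immunosubunit share was 23.6 percentage points, beside 21.5. Psmb10 to Psmb7 in phagocytes was 3.81 under that gate and 2.84 with thinned cells, beside 3.22. The cause of these moves was not tested. That gate and one allowing at most 1 marker of other classes left too few NK cells (26 and 32 in anti-CD40) for a value, and a gate allowing none left 33 anti-CD40 and 46 isotype phagocytes and was not run. No paired analysis was possible because each group is 1 library. The main limits are the single library per group, carried-over RNA and small classes.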

Other observations

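Among the antibody tags was one against H-2Kb bound to the ovalbumin peptide SIINFEKL, which no label says was given to these mice. In phagocytes it took 0.0521% of tag UMIs in the anti-CD40 library and 0.0559% in the isotype library, where the mean of the 9 control tags was 0.00737% and 0.00928%. This was not particular to phagocytes. The tag also stood above the control mean in NK cells (0.0338% in anti-CD40, 0.0451% in isotype), neutrophils (0.0314% and 0.0234%), B cells and T cells. Cells that entered no class (1508 in anti-CD40, 966 in isotype) had ratios close to those of phagocytes, with 4.04 for Psmb8 (1090 CPM in anti-CD40, 270 CPM in isotype) and 5.01 for Tap1 (410 CPM and 81.8 CPM). Their immunosubunit share was 81.0% in anti-CD40 and 62.0% in isotype.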
